A study of Mus musculus with 3 samples.

Results

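Homeostatic microglia genes are the transcripts by which resident macrophages of the healthy brain are usually told from other macrophages. The 33 genes described here were taken as a named list, and all 33 were present in each of the 3 deposited expression tables, out of 18214 genes in any table and 15904 in all of them. They were followed in single cells of one pool of 8 mouse samples, marked with hashtag antibodies and sequenced as 1 mRNA, 1 surface antibody and 1 hashtag library with 35 antibodies. The 4 brain samples came from naive mice, 2 labelled CCR2-/- and 2 labelled CCR2+/-. The 4 blood samples were a Hom and a Het sample from mice about 2 weeks after carotid artery injection of E0771 mammary carcinoma cells, and a Hom and a Het sample from naive mice. The labels give the pool's genotypes as Cx3cr1-/-, Cx3cr1+/-, CCR2-/- and CCR2+/- and do not say which gene Hom and Het refer to in blood. All mice were female C57Bl/6 animals of at most 3 months. Each brain sample was 1 hemisphere from a mouse perfused with saline. No source says whether samples of 1 genotype came from separate animals, so the p-values below measure the spread between hashed samples, which may be technical.

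Microglia settle in the brain before birth and keep their identity there under TGF beta signalling and transcription factors such as Sall1 and Mef2c. In the undisturbed brain they carry purine receptors that sense nucleotides from injured cells, lipid and sialic acid receptors, and secreted matrix proteins. Border macrophages of the meninges and vessels and monocytes of the blood share some of these genes but are generally held to lack the microglial signature. CCR2 is the chemokine receptor with which monocytes leave the bone marrow, and resting microglia are known to make little of it.

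Of the 16328 deposited cell entries, 11063 were used, those whose barcode occurred in a single table and whose hashtag counts came at least to 0.5 from that table's own hashtags. The tables shared many barcodes. Of the brain entries 1726 occurred in another table, as did 1601 of the naive blood entries and 1645 of the metastasis blood entries. The brain samples kept 675 and 1037 cells in CCR2-/- and 908 and 730 cells in CCR2+/-, and the 4 blood samples kept between 1716 and 2074 cells each. The median raw total ran between 3928.5 and 7393.5 UMIs (unique transcript tags) per cell over the 8 samples. Values are given as levels, which are the authors' depth-corrected counts per 10000 such counts, summed over the cells of one sample and one of the authors' clusters. The CCR2-/- pair and the CCR2+/- pair are the 2 brain samples of each genotype, in their numbered order. A level compares cells for 1 gene, and levels of different genes are not compared.

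The promoters of 5 members are printed to show the DNA at the start of the genes on which the cluster comparison (P2ry12 and P2ry13) and the genotype comparison (Gpr84, Tmem86a and Tmx4) turn. The windows come from RefSeq, build GRCm38.p6, and run from 250 bases before to 50 bases after the start of transcription, read along the gene. The P2ry12 window is chr3:59262936-59263235 on the minus strand, and that of its neighbour P2ry13 is chr3:59210833-59211132, also on the minus strand. Gpr84 has chr15:103310389-103310688 (minus), Tmem86a has chr7:47050390-47050689 (plus) and Tmx4 has chr2:134644072-134644371 (minus). Capitals mark AGGAAG, letters found in sites of the ETS family of factors, to which the myeloid regulator PU.1 belongs. The letters were chosen with these sequences in view.
P2ry12: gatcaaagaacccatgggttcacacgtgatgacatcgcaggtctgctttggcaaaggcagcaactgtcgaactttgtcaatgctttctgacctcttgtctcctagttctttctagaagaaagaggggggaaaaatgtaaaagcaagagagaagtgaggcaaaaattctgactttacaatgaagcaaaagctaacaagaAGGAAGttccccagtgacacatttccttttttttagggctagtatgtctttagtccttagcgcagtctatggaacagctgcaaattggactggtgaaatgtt
P2ry13: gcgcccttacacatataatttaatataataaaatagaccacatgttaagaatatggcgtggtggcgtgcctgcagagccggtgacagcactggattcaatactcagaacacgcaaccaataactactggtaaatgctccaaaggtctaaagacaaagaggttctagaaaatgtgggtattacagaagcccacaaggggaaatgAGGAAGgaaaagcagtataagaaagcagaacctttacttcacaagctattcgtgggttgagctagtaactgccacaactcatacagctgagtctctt
Gpr84: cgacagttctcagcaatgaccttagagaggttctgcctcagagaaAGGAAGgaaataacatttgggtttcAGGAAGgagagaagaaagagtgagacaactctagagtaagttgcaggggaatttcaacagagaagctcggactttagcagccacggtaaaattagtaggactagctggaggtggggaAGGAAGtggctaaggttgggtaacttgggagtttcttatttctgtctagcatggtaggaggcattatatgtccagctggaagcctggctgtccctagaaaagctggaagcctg
Tmem86a: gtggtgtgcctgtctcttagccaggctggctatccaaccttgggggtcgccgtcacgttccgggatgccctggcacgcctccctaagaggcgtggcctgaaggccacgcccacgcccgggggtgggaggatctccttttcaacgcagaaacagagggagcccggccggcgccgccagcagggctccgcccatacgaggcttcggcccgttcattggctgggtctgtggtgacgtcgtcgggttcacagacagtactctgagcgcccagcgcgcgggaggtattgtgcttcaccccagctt
Tmx4: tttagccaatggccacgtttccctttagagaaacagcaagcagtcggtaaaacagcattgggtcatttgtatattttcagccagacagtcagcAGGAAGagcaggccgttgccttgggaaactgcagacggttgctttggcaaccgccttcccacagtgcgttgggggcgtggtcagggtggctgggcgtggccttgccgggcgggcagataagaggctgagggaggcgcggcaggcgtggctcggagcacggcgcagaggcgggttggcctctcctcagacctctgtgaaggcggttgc

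Gpr84 carried AGGAAG at 3 places, P2ry12, P2ry13 and Tmx4 at 1 place each, and Tmem86a at none. The Tmem86a window held 25 CpG dinucleotides at 66% G and C, and the Gpr84 window held 3 at 47%. RefSeq windows were at hand for 24 of the 33 members, 34 windows in all, and 14 of these (41.2%) held AGGAAG on either strand, against 35.4% of all 32851 mouse windows. The members with the letters were P2ry12, P2ry13, Sall1, Olfml3, Tgfbr1, Trem2, Gpr84, Rab3il1, Mef2c, Serpine2, Entpd1 and Tmx4. A MEF2 motif was in 0 of the member windows and in 3.19% of all windows. A match is a description of letters and not of a bound site.

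Ccr2, the gene deleted in the CCR2-/- mice, was read first. In brain cluster 3, which holds border macrophages and other myeloid cells, its level was 0.290 and 0.470 in the CCR2-/- samples, against 2.66 and 3.16 in the CCR2+/- samples, so the groups were far apart in the labelled direction. In clusters 1 and 0 it lay between 0.0807 and 0.215 with the gene deleted and between 0.100 and 0.269 in CCR2+/- samples. In blood monocytes Ccr2 was 15.7 in metastasis Hom and 17.7 in metastasis Het cells, and 12.6 in naive Hom and 12.2 in naive Het cells. Cx3cr1, the fractalkine receptor gene, differed there instead. It was 0.277 (95% interval 0.213 to 0.352) in metastasis Hom and 2.20 (1.97 to 2.44) in metastasis Het monocytes, and 0.426 (0.303 to 0.582) in naive Hom and 3.18 (2.82 to 3.57) in naive Het monocytes. Intervals here and below are exact Poisson intervals of summed corrected counts, treated as if they were raw counts. They only approximate counting error and cover no spread between samples.

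Most brain cells fell into the authors' clusters 1 and 0. Cluster 1 comprised 1232 cells, of which 240 and 404 were from the CCR2-/- samples, against 269 and 319 from the CCR2+/- samples. All 10 microglia markers were raised in it, and 7 of them were among its 10 leading genes, so it is called microglia-like. Cluster 0 comprised 1236 cells, of which 256 and 409 were from CCR2-/-, against 336 and 235 from CCR2+/-. None of the microglia markers led it and its cells were shallow, with median raw totals of 1486 to 1598.5 UMIs by sample, against 9267 to 10994.5 in cluster 1. It is therefore left without a cell type name. Both clusters lay in the CD45-low CD11b+ surface gate of microglia, 1190 of 1232 cells (96.6%) of cluster 1 and 1184 of 1236 (95.8%) of cluster 0. Cluster 3 had 49 of 191 cells (25.7%) in that gate. The 33 members together made up a median of 2.47, 2.63, 2.48 and 2.48% of a cell's corrected counts in cluster 1 (CCR2-/- 1 and 2, then CCR2+/- 1 and 2) and 1.24, 1.27, 1.29 and 1.37% in cluster 0. In cluster 3 the share was 0.438 and 0.513% in CCR2-/- and 0.577 and 0.557% in CCR2+/- cells.

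Cluster 1 carried most members at several times their cluster 0 level, while 6 members went the other way. Of 33 members, 22 were at least 1.5-fold higher in cluster 1 in 4 of 4 samples, against 31.4% of the 9086 genes compared, and 6 were at least 1.5-fold lower in 4 of 4, against 7.24% of those genes. The remaining 5 were P2ry6, Siglech, Tgfbr1, Bin1 and Entpd1. The median member was 3.82-fold higher in cluster 1, a log2 ratio of 1.93, and the median of all genes was 1.45-fold higher (0.54). The authors drew the clusters from these same genes, so the ratios describe the clusters and carry no test.

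**Figure D1:**
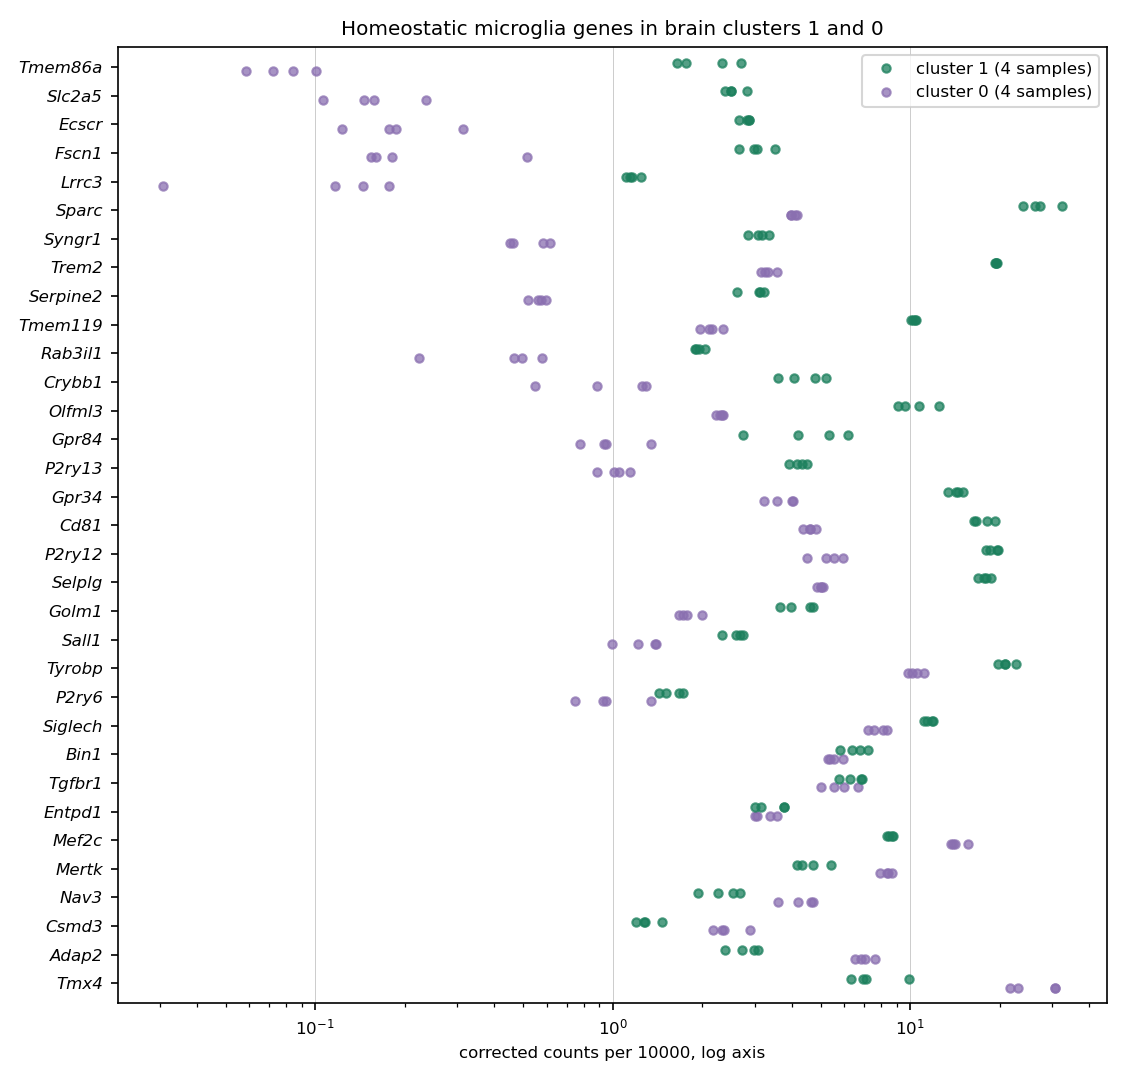
Levels of the 33 members (corrected counts per 10000, log axis) in cluster 1 (green) and cluster 0 (purple), with 1 point for each of the 4 brain samples. For 22 members every green point lies at least 1.5-fold to the right of its sample's purple point, and for Tmx4, Adap2, Csmd3, Nav3, Mertk and Mef2c the order is turned.

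Among the purine genes, P2ry12, the ADP receptor that steers microglial processes (chr3:59216271-59262985), had in cluster 1 a level of 18.5 and 19.8 in the CCR2-/- pair, against 18.0 and 19.7 in the CCR2+/- pair. In cluster 0 it had 4.51 and 5.93 in the CCR2-/- pair, against 5.21 and 5.54 in the CCR2+/- pair. The clusters did not overlap, and the log2 ratio of cluster 1 over cluster 0 was 1.85 ± 0.13 (mean and SD over 4 samples, as for the ratios below). P2ry13, another ADP receptor in the same stretch of chromosome 3 (chr3:59207892-59210882), was at 3.93 and 4.50 in the CCR2-/- pair, against 4.17 and 4.32 in the CCR2+/- pair, in cluster 1, and at 1.05 and 1.15 in the CCR2-/- pair, against 0.888 and 1.01 in the CCR2+/- pair, in cluster 0. Its ratio of 2.05 ± 0.14 was close to that of P2ry12. P2ry6, the UDP receptor linked to phagocytosis, was at 1.44 and 1.67 in the CCR2-/- pair, against 1.51 and 1.73 in the CCR2+/- pair, in cluster 1, and at 0.744 and 1.34 in the CCR2-/- pair, against 0.947 and 0.924 in the CCR2+/- pair, in cluster 0, so that cluster 1 was higher in each sample but short of 1.5-fold in the second CCR2-/- one. Entpd1 (CD39), which breaks down extracellular ATP and ADP, was at 3.15 and 3.78 in the CCR2-/- pair, against 3.75 and 3.00 in the CCR2+/- pair, in cluster 1, and at 3.05 and 3.57 in the CCR2-/- pair, against 3.00 and 3.39 in the CCR2+/- pair, in cluster 0, and the clusters overlapped.

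The receptors for lipids, glycans and adhesion did not all follow one direction. Trem2, a lipid receptor that signals through the adaptor Tyrobp, was at 19.3 and 19.5 in the CCR2-/- pair, against 19.6 and 19.5 in the CCR2+/- pair, in cluster 1, and at 3.32 and 3.24 in the CCR2-/- pair, against 3.16 and 3.57 in the CCR2+/- pair, in cluster 0. Tyrobp itself was at 20.8 and 22.8 in the CCR2-/- pair, against 20.9 and 19.7 in the CCR2+/- pair, in cluster 1, and at 10.1 and 10.6 in the CCR2-/- pair, against 9.82 and 11.1 in the CCR2+/- pair, in cluster 0. The ratio was 2.55 ± 0.08 for the receptor and 1.02 ± 0.13 for its adaptor, so the 2 partners did not differ between clusters to the same degree. Gpr34, the lysophosphatidylserine receptor, was at 14.5 and 15.1 in the CCR2-/- pair, against 13.4 and 14.3 in the CCR2+/- pair, in cluster 1, and at 3.998 and 4.04 in the CCR2-/- pair, against 3.21 and 3.55 in the CCR2+/- pair, in cluster 0. Selplg, the P-selectin ligand PSGL-1, was at 16.9 and 17.8 in the CCR2-/- pair, against 17.9 and 18.7 in the CCR2+/- pair, in cluster 1, and at 4.87 to 5.11 over the 4 samples in cluster 0. Both had ratios near those of the ADP receptors, 1.96 ± 0.09 for Gpr34 and 1.84 ± 0.07 for Selplg. Gpr84, a receptor for medium-chain fatty acids that inflammatory signals are known to induce, was 4.49-fold higher in cluster 1, with sample values given under genotype below. Siglech, a sialic acid receptor shared with plasmacytoid dendritic cells, was at 11.2 to 11.9 in cluster 1 and 7.24 to 8.35 in cluster 0. Mertk, which recognises dying cells, stood the other way. It was at 4.35 and 4.15 in the CCR2-/- pair, against 5.42 and 4.72 in the CCR2+/- pair, in cluster 1, and at 7.91 and 8.40 in the CCR2-/- pair, against 8.69 and 8.35 in the CCR2+/- pair, in cluster 0, without overlap.

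The transcriptional and TGF beta members did not move as a block. Sall1, the zinc finger factor of microglial identity, was at 2.34 and 2.598 in the CCR2-/- pair, against 2.67 and 2.73 in the CCR2+/- pair, in cluster 1, and at 1.22 and 1.38 in the CCR2-/- pair, against 0.994 and 1.40 in the CCR2+/- pair, in cluster 0, and was 2.08-fold higher in cluster 1. Tgfbr1, the type I TGF beta receptor, was at 6.28 and 5.79 in the CCR2-/- pair, against 6.90 and 6.81 in the CCR2+/- pair, in cluster 1, and at 5.004 and 5.56 in the CCR2-/- pair, against 5.97 and 6.68 in the CCR2+/- pair, in cluster 0. The clusters lay close for it, with a ratio of 0.16 ± 0.14. Mef2c, a MADS box factor, was at 8.73 and 8.33 in the CCR2-/- pair, against 8.50 and 8.70 in the CCR2+/- pair, in cluster 1, and at 13.9 and 13.8 in the CCR2-/- pair, against 14.2 and 15.6 in the CCR2+/- pair, in cluster 0, and was 1.67-fold higher in cluster 0.

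Of the secreted and matrix genes 4 of 5 were higher in cluster 1. Sparc, a matricellular glycoprotein, was at 27.3 and 32.4 in the CCR2-/- pair, against 24.0 and 26.2 in the CCR2+/- pair, in cluster 1, and at 3.99 and 4.17 in the CCR2-/- pair, against 3.96 and 4.10 in the CCR2+/- pair, in cluster 0. Olfml3, a secreted glycoprotein of the olfactomedin family, was at 10.7 and 12.5 in the CCR2-/- pair, against 9.08 and 9.63 in the CCR2+/- pair, in cluster 1, and at 2.36 and 2.30 in the CCR2-/- pair, against 2.23 and 2.33 in the CCR2+/- pair, in cluster 0. Neither overlapped between the clusters, and the ratios were 2.75 ± 0.16 for Sparc and 2.18 ± 0.19 for Olfml3. Serpine2, a protease inhibitor, was at 3.12 and 3.11 in the CCR2-/- pair, against 2.61 and 3.23 in the CCR2+/- pair, in cluster 1, and at 0.599 and 0.573 in the CCR2-/- pair, against 0.520 and 0.563 in the CCR2+/- pair, in cluster 0. Crybb1, a crystallin gene also transcribed in microglia, was at 3.61 and 4.09 in the CCR2-/- pair, against 5.20 and 4.80 in the CCR2+/- pair, in cluster 1, and at 1.25 and 0.886 in the CCR2-/- pair, against 1.30 and 0.546 in the CCR2+/- pair, in cluster 0. Its ratio of 2.22 ± 0.68 had a wider spread than the 2.42 ± 0.08 of Serpine2. Csmd3, a large CUB and sushi domain protein, was the exception. It was at 1.29 and 1.20 in the CCR2-/- pair, against 1.27 and 1.46 in the CCR2+/- pair, in cluster 1, and at 2.18 and 2.36 in the CCR2-/- pair, against 2.33 and 2.89 in the CCR2+/- pair, in cluster 0.

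Of the membrane and transport genes, Tmem119, a widely used microglia marker, was at 10.2 and 10.4 in the CCR2-/- pair, against 10.1 and 10.5 in the CCR2+/- pair, in cluster 1, and at 1.96 and 2.34 in the CCR2-/- pair, against 2.15 and 2.10 in the CCR2+/- pair, in cluster 0. Cd81, a tetraspanin, was at 19.3 and 18.1 in the CCR2-/- pair, against 16.4 and 16.7 in the CCR2+/- pair, in cluster 1, and at 4.61 and 4.36 in the CCR2-/- pair, against 4.62 and 4.83 in the CCR2+/- pair, in cluster 0. Both separated the clusters fully, with ratios of 2.27 ± 0.10 for Tmem119 and 1.93 ± 0.15 for Cd81. Golm1, a Golgi membrane protein, was at 3.97 and 3.65 in the CCR2-/- pair, against 4.61 and 4.73 in the CCR2+/- pair, in cluster 1, and at 1.73 and 1.77 in the CCR2-/- pair, against 1.99 and 1.67 in the CCR2+/- pair, in cluster 0. Syngr1, a vesicle membrane protein, was at 2.86 and 3.07 in the CCR2-/- pair, against 3.18 and 3.35 in the CCR2+/- pair, in cluster 1, and at 0.453 and 0.462 in the CCR2-/- pair, against 0.585 and 0.613 in the CCR2+/- pair, in cluster 0. The ratios were 1.24 ± 0.19 for Golm1 and 2.57 ± 0.15 for Syngr1.

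The widest ratios of the list belonged to members nearly absent from cluster 0. Tmem86a, a lysoplasmalogenase, was at 1.64 and 1.77 in the CCR2-/- pair, against 2.70 and 2.34 in the CCR2+/- pair, in cluster 1, and at 0.0844 and 0.0722 in the CCR2-/- pair, against 0.0585 and 0.101 in the CCR2+/- pair, in cluster 0, a ratio of 26.7-fold. Slc2a5, the fructose transporter, was at 2.50 and 2.83 in the CCR2-/- pair, against 2.49 and 2.38 in the CCR2+/- pair, in cluster 1, and at 0.146 and 0.106 in the CCR2-/- pair, against 0.158 and 0.235 in the CCR2+/- pair, in cluster 0, a ratio of 16.5-fold. Both rest on few cluster 0 counts, as few as 10 in one sample for Tmem86a and 19 for Slc2a5. Ecscr, first described in endothelial cells, was at 2.87 and 2.66 in the CCR2-/- pair, against 2.82 and 2.88 in the CCR2+/- pair, in cluster 1, and at 0.123 and 0.313 in the CCR2-/- pair, against 0.187 and 0.176 in the CCR2+/- pair, in cluster 0. Lrrc3 was at 1.15 and 1.11 in the CCR2-/- pair, against 1.24 and 1.16 in the CCR2+/- pair, in cluster 1, and at 0.0307 and 0.144 in the CCR2-/- pair, against 0.117 and 0.176 in the CCR2+/- pair, in cluster 0. For Lrrc3 the lowest cluster 0 value came from 4 counts. Tmx4, a thioredoxin-like membrane protein of the endoplasmic reticulum, went furthest the other way. It was at 6.97 and 6.35 in the CCR2-/- pair, against 9.93 and 7.10 in the CCR2+/- pair, in cluster 1, and at 23.0 and 21.6 in the CCR2-/- pair, against 30.8 and 30.7 in the CCR2+/- pair, in cluster 0, and was 3.50-fold higher in cluster 0.

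The cytoskeletal and trafficking genes were divided. Fscn1, the actin bundler fascin, was at 2.99 and 3.50 in the CCR2-/- pair, against 2.67 and 3.07 in the CCR2+/- pair, in cluster 1, and at 0.153 and 0.515 in the CCR2-/- pair, against 0.181 and 0.160 in the CCR2+/- pair, in cluster 0. Rab3il1, an exchange factor for Rab proteins, was at 1.91 and 1.89 in the CCR2-/- pair, against 1.96 and 2.05 in the CCR2+/- pair, in cluster 1, and at 0.223 and 0.578 in the CCR2-/- pair, against 0.468 and 0.496 in the CCR2+/- pair, in cluster 0. They were 13.9-fold and 4.69-fold higher in cluster 1, and the second CCR2-/- sample had the highest cluster 0 level of each. Bin1, which curves membranes, was at 6.77 and 7.22 in the CCR2-/- pair, against 5.81 and 6.36 in the CCR2+/- pair, in cluster 1, and at 5.30 and 5.93 in the CCR2-/- pair, against 5.40 and 5.53 in the CCR2+/- pair, in cluster 0, a ratio of 0.24 ± 0.11. Adap2, an Arf GTPase-activating protein, was at 2.72 and 2.39 in the CCR2-/- pair, against 3.09 and 2.99 in the CCR2+/- pair, in cluster 1, and at 6.52 and 6.85 in the CCR2-/- pair, against 7.62 and 7.06 in the CCR2+/- pair, in cluster 0. Nav3, a neuron navigator protein, was at 2.53 and 1.93 in the CCR2-/- pair, against 2.26 and 2.67 in the CCR2+/- pair, in cluster 1, and at 4.66 and 4.19 in the CCR2-/- pair, against 3.61 and 4.71 in the CCR2+/- pair, in cluster 0. Adap2 and Nav3 were 2.52-fold and 1.83-fold higher in cluster 0, without overlap.

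The members lower in cluster 1 were, as a set, longer than those higher in it. The 6 genes spanned 24.8 to 1212 kb, with a median of 134 kb, while the 22 members higher in cluster 1 spanned 2.44 to 64.3 kb, with a median of 14.9 kb. Across the 33 members the Spearman correlation of the cluster 1 over cluster 0 log2 ratio with genomic span was -0.57, and across the 8726 genes with a span it was -0.23. All these points share the same 4 samples and the same difference in depth. Other transcripts differed along with the members. Malat1 and Xist, which stay in the nucleus, were at 331 to 351 and 10.7 to 12.5 in cluster 1, and at 638 to 676 and 56.4 to 61.6 in cluster 0. The 13 mitochondrial genes summed to 201 to 249 in cluster 1 and 1315 to 1825 in cluster 0, and Actb was at 73.1 to 86.1 in cluster 1 and 21.0 to 23.7 in cluster 0. The 10 border macrophage markers summed to 1.98 to 2.37 in cluster 1 and 2.92 to 3.99 in cluster 0, and the 10 Ly6c-high monocyte markers to 1.12 to 1.36 in cluster 1 and 4.63 to 5.46 in cluster 0. The part of RNA composition and of depth in the ratios was not tested. Few cells lay in a shared range of 2500 to 5000 raw UMIs, 32 of cluster 1 with a median of 3946 and 119 of cluster 0 with a median of 2846, so depth still differed between them. In these cells, summed over samples, the median log2 ratio of the members was 1.79 and all 33 kept their sign, but single ratios moved. Mertk was at -0.35, Mef2c at -0.37 and Adap2 at -0.49, all short of 1.5-fold. Gpr84 was at 0.69, Sall1 at 0.54 and P2ry6 at 0.20, while Bin1 was at 1.24 and Tmem119 at 3.77.

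**Figure D2:**
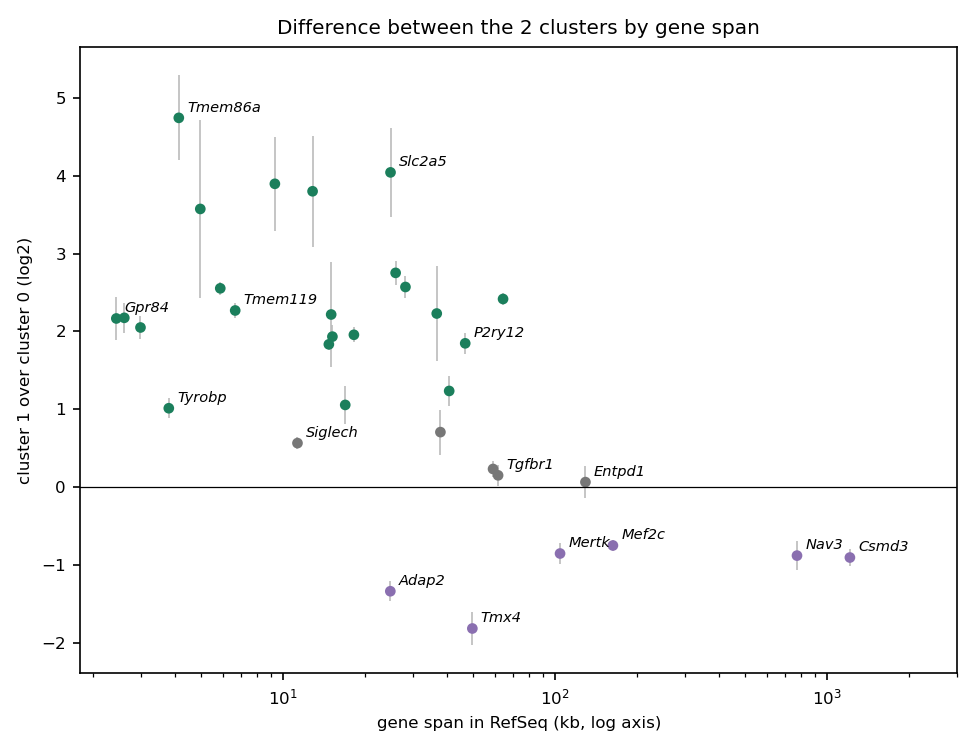
Log2 ratio of cluster 1 over cluster 0 (mean of 4 samples) against genomic span (kb, log axis) for the 33 members, with the SD over samples as grey lines. Green points are members at least 1.5-fold higher in cluster 1 in 4 of 4 samples, purple ones at least 1.5-fold lower and grey ones neither. The 5 members longer than 100 kb lie at 0.07 or below.

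CCR2 genotype was compared next, a question the series poses for the brain, with limma on the 4 brain samples. In the microglia-like cluster 1, Gpr84 rose and Tmem86a fell in CCR2-/- brains, and no other member passed. Gpr84 was at 5.34 and 6.16 in CCR2-/- samples, against 2.75 and 4.19 in CCR2+/- samples. The groups did not overlap, and the CCR2+/- samples lay further apart from each other than the CCR2-/- ones. The difference was 0.76 on the log2 scale (SE 0.13, 95% interval 0.48 to 1.03, 1.69-fold, limma adjusted p = 0.00569). Tmem86a was at 1.64 and 1.77 in CCR2-/- samples, against 2.70 and 2.34 in CCR2+/- samples, again without overlap. Its difference was -0.56 (SE 0.10, 0.679-fold, limma adjusted p = 0.00877). These are 2 of 33 members, against a background of 0.485% (52 of 10713 genes). Both calls rest on the first CCR2+/- sample: without it Gpr84 differed by 0.45 (limma adjusted p = 0.211) and Tmem86a by -0.46 (limma adjusted p = 0.185).

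**Figure D3:**
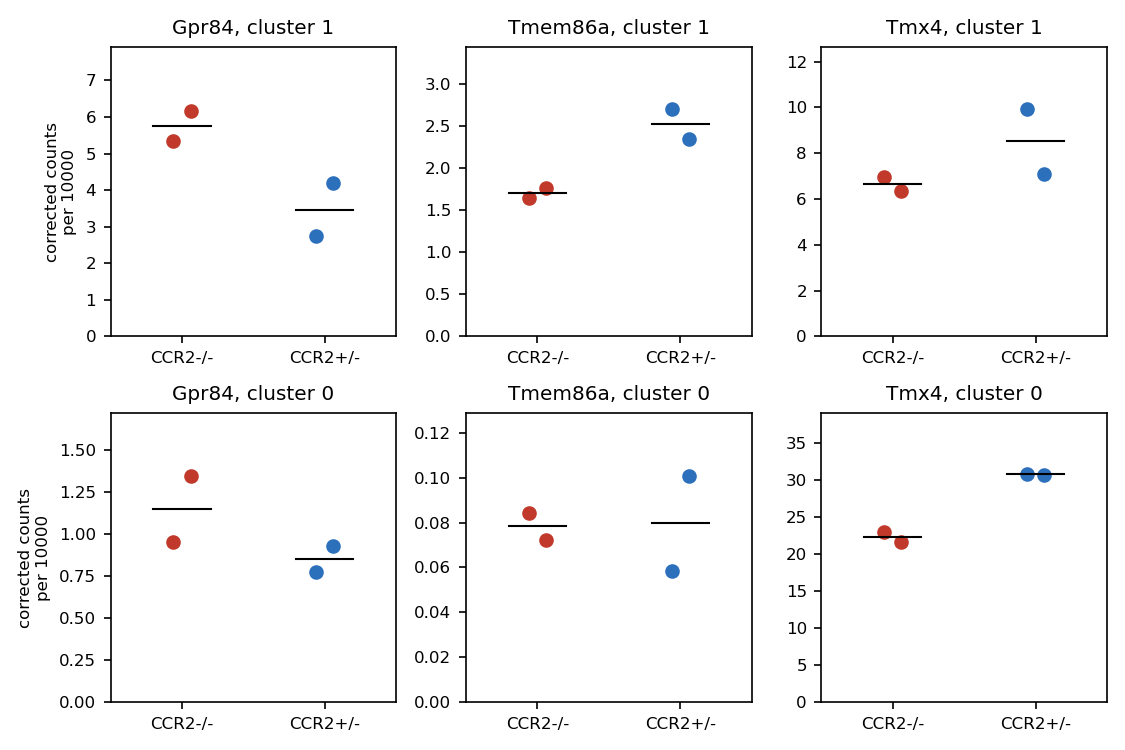
Levels (corrected counts per 10000) of Gpr84, Tmem86a and Tmx4 in cluster 1 (upper row) and cluster 0 (lower row), 1 point per sample, in CCR2-/- (red) and CCR2+/- (blue) brains, with the group mean as a black bar. In cluster 1 the CCR2-/- points lie above the CCR2+/- points for Gpr84 and below them for Tmem86a, and in cluster 0 they lie below them for Tmx4.

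The rest of the programme showed no common shift. In cluster 1, 13 members were higher and 20 lower in CCR2-/-, the median difference was -0.01 against -0.04 over all genes, and 10 members had an unadjusted p under 0.05. Over all 10713 genes 4564 were higher and 6149 lower, and 951 had an unadjusted p under 0.05. For Tmem119, P2ry12, P2ry13 and Trem2 the genotypes overlapped in the levels given above. In 19 of 33 members the CCR2-/- and CCR2+/- samples did not overlap, against 38.0% of all genes, a count that includes differences far below the threshold. Next nearest to the threshold was Crybb1, at 3.61 and 4.09 in the CCR2-/- pair, against 5.20 and 4.80 in the CCR2+/- pair (log2 difference -0.38, limma adjusted p = 0.0823). Olfml3, at 10.7 and 12.5 in the CCR2-/- pair, against 9.08 and 9.63 in the CCR2+/- pair, and Sparc passed only when the first CCR2-/- sample was left out. Crybb1 passed without the second CCR2-/- sample (-0.47, limma adjusted p = 0.0168) and with a hashtag share of at least 0.8 (-0.39, limma adjusted p = 0.0406). With a sample left out, the lone sample of its genotype is assumed to vary like the others.

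In cluster 0, Tmx4 fell in CCR2-/- brains, to 23.0 and 21.6 against 30.8 and 30.7 in CCR2+/- brains, with close values within each genotype. The log2 difference was -0.46 (SE 0.07, limma adjusted p = 0.0201), 1 of 33 members against a background of 0.101% (10 of 9889 genes, all 10 lower in CCR2-/-). With all deposited cells the difference was -0.48 and did not pass (limma adjusted p = 0.0685). It was -0.25 in cells with a hashtag share of at least 0.8 (limma adjusted p = 0.731) and -0.26 in the mean of the deposited ln values (limma adjusted p = 0.687). Nor did it pass without the first CCR2-/- sample (-0.51, limma adjusted p = 0.146) or the second (-0.42, limma adjusted p = 0.208). In cluster 0 Gpr84 was at 0.952 and 1.35 in CCR2-/- samples, against 0.777 and 0.933 in CCR2+/- samples, and did not pass (log2 difference 0.41, limma adjusted p = 0.896). In 13 of 33 members the groups did not overlap there, against 34.3% of all genes. In cluster 1 Tmx4 leaned the same way without passing (log2 difference -0.34, limma adjusted p = 0.319). That value was -0.09 without the first CCR2+/- sample (limma adjusted p = 0.999) and -0.58 without the second, where it passed (limma adjusted p = 0.0191). With both clusters joined, Tmem86a was again lower (-0.57, SE 0.11, limma adjusted p = 0.0351), 1 member against a background of 0.179% of 11712 genes, and Gpr84 did not pass (0.69, limma adjusted p = 0.105). The joined Tmem86a call was lost under 7 of 11 alternatives, with a limma adjusted p of up to 0.388.

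Whether genotype acted unequally in the clusters was tested as the difference between the differences. Of 9498 genes 0 passed in limma, 439 had an unadjusted p under 0.05, and 3 of these were members (Slc2a5, Crybb1 and Cd81). The called genes are thus not shown to differ between the clusters. For Gpr84 the cluster 1 difference exceeded that in cluster 0 by 0.35 (95% interval -0.04 to 0.74), and for Tmem86a the same contrast was -0.58 (95% interval -1.38 to 0.22).

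**Figure D4:**
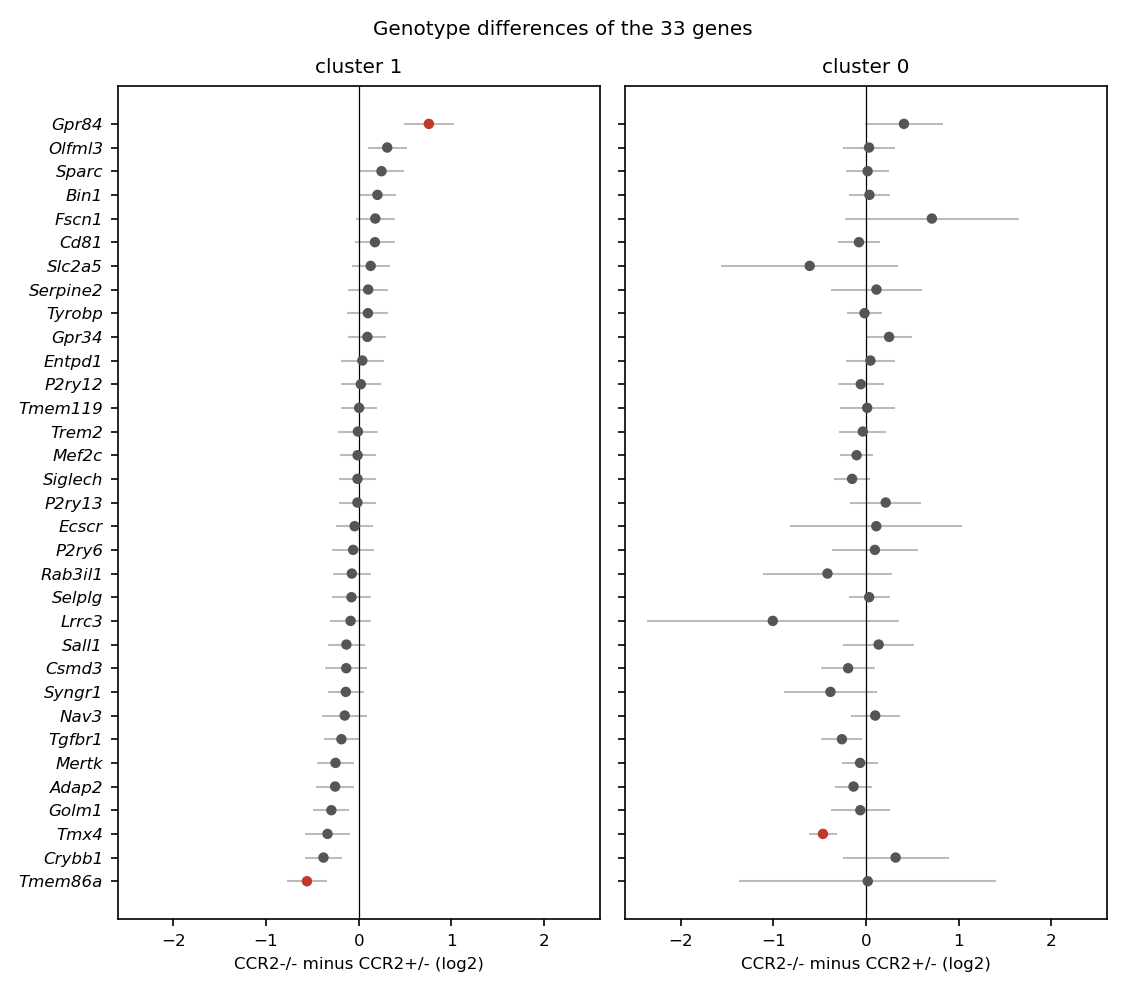
Log2 difference of CCR2-/- minus CCR2+/- for the 33 members in cluster 1 and in cluster 0, with 95% intervals of the fit (grey lines). Red points mark a limma adjusted p under 0.05, Gpr84 and Tmem86a in cluster 1 and Tmx4 in cluster 0, and most other points lie near 0.

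Gene lists around the members moved little with genotype. In cluster 1, 0 of 10 measured genes of the TGF beta axis, 0 of 6 other purine genes, 0 of 16 disease-associated microglia genes and 0 of 22 immediate early genes passed in limma. The disease-associated list, which holds genes that microglia are known to raise near plaques and lesions, had 3 genes higher and 13 lower in CCR2-/-, with a median difference of -0.22, against -0.04 over all genes. In cluster 0 the immediate early genes Jun and Klf2 fell, 2 of 22, against a background of 0.101%, and 17 of the 22 were lower, against 5291 of all 9889 genes. Jun was at 98.9 and 113 in CCR2-/- against 131 and 132 in CCR2+/- samples (limma adjusted p = 0.0493), and Klf2 at 23.3 and 23.0 against 29.9 and 32.6 (limma adjusted p = 0.0312). These genes are known to respond to tissue dissociation, and their part in the cluster 0 difference of Tmx4 was not tested.

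Cluster 3, which is border macrophage-like by its leading markers, had 32 and 46 cells from CCR2-/- brains, against 62 and 51 from CCR2+/- brains. Its median member stood at 17.7% of the mean of its levels in clusters 1 and 0, against 86.2% for all genes. By sample the median was 20.8% in the second CCR2-/- sample and 19.3 and 17.2% in the CCR2+/- samples, and the first CCR2-/- sample lay below them all. Only 4 members reached 50%, namely Tyrobp (140%), P2ry6 (87.5%), Tmem86a (68.4%) and Rab3il1 (53.0%). Tyrobp was at 21.8 and 22.2 in the CCR2-/- pair, against 20.8 and 23.6 in the CCR2+/- pair, and it is the adaptor of many myeloid receptors. P2ry6 was at 1.08 and 0.853 in the CCR2-/- pair, against 1.38 and 1.20 in the CCR2+/- pair. Tmem86a was at 0.207 and 0.764 in the CCR2-/- pair, against 1.12 and 0.903 in the CCR2+/- pair, and Rab3il1 at 0.207 and 0.706, against 0.879 and 0.744. For P2ry6, Tmem86a and Rab3il1 the CCR2-/- samples lay below the CCR2+/- ones, while those of Tyrobp lay within their range. The share of all genes whose groups were apart in cluster 3 was not computed. The make-up of the cluster also differed between the genotypes, as given below, and its part in these values was not tested.

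The cluster is not uniform, and it was divided, after its values were seen, at 3 of 10 border macrophage markers. The 107 cells with 3 or more had Mrc1 at 7.32, Pf4 at 11.0 and Cd163 at 1.49, while the 84 others had 0.382, 0.127 and 0. Markers used to divide the cells differ by that choice. Ly6c2 was at 6.61 in the others, against 0.854 in the first, and Cd209a at 4.09 against 2.24. Ccr2, the deleted gene, was at 1.69 in the others and 2.00 in the first, summed over both genotypes. The first drew more on CCR2+/- brains, as given below, so this order cannot be told apart from genotype. At the limit itself were 21 cells, with 40 just under it. The marker-rich cells made up 12 of 32 and 19 of 46 cells (37.5 and 41.3%) of CCR2-/- brains, against 43 of 62 and 33 of 51 (69.4 and 64.7%) of CCR2+/- brains. In them the median member reached 24.6% of its level in clusters 1 and 0, and in the others 11.4%. Of 33 members 30 were higher in the marker-rich cells, the exceptions being Siglech, Selplg and Tyrobp. The share of all genes higher in these cells was not computed, so the count describes the division and is not a result particular to the members.

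In the marker-rich cells the members ranged between more than their microglial level and a few percent of it. P2ry6 reached 139%, Tyrobp 132%, Tmem86a 115%, Rab3il1 90.5%, Cd81 70.0% and Trem2 64.8% of the level in clusters 1 and 0. Mef2c, Entpd1 and Tgfbr1 followed with 46.6, 43.5 and 41.0%. Tmem119 had 24.6% and P2ry12 16.8%. Sall1 had 11.3%, Slc2a5 9.39%, Tmx4 9.19%, Nav3 4.60% and Csmd3 3.40%. Trem2 over the whole of cluster 3 was at 2.94 and 3.35 in CCR2-/- against 5.62 and 6.24 in CCR2+/- cells, without overlap. Within the marker-rich cells it was at 7.46 and 5.75 in CCR2-/- against 6.85 and 9.05 in CCR2+/- cells, and the groups overlapped. These cluster 3 levels are a description, and no test of genotype was made on them.

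**Figure D5:**
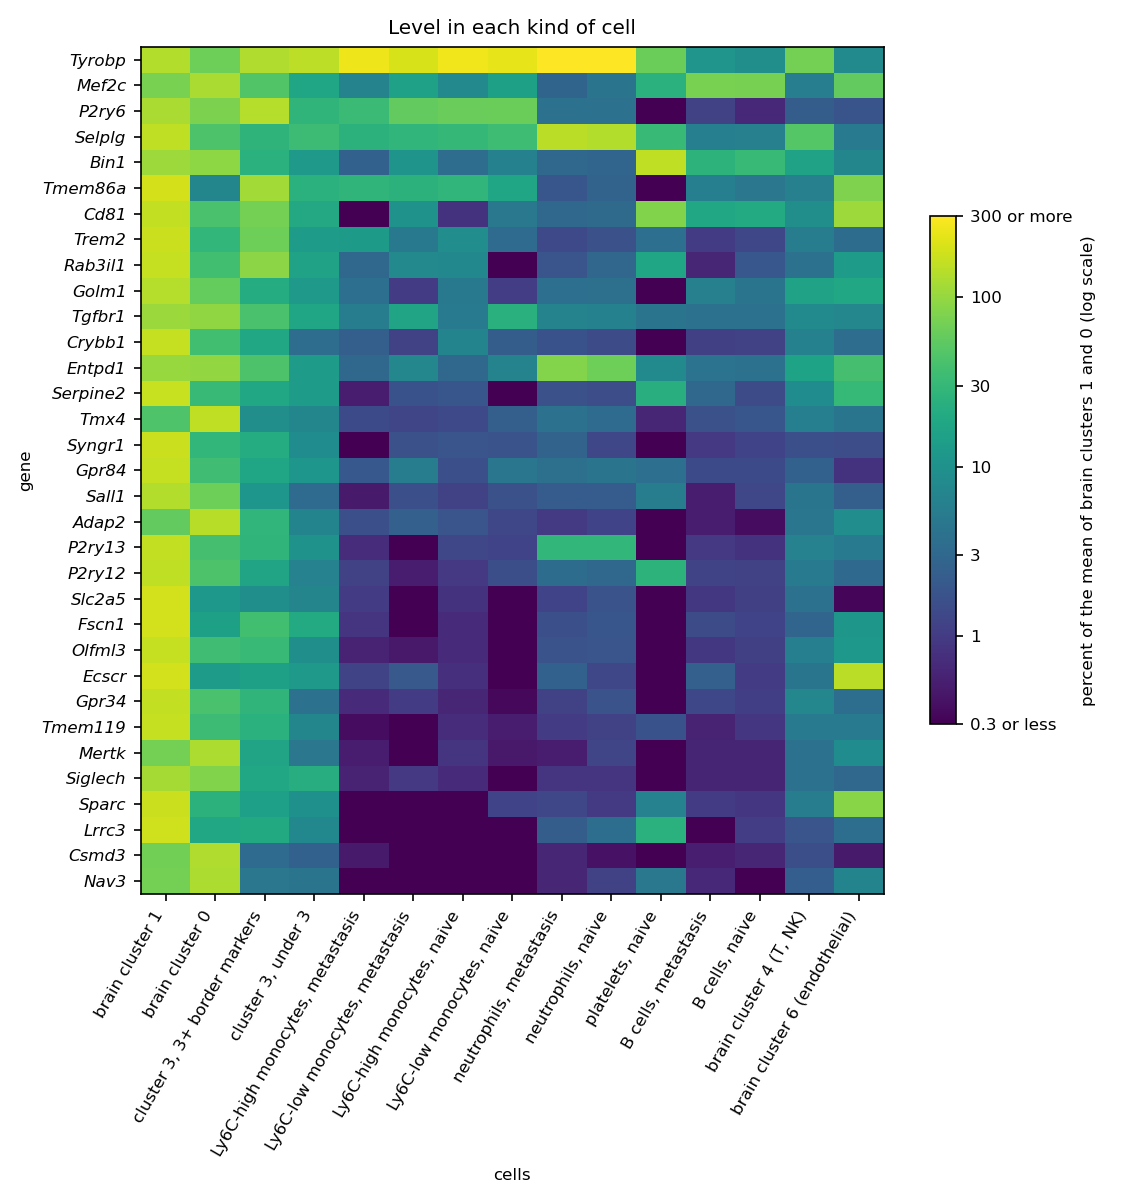
Level of each member in other cells as a percent of the mean of brain clusters 1 and 0 (colour, log scale), with members as rows and kinds of cell as columns. The Tyrobp row is bright across the myeloid columns, at 246% in metastasis and 239% in naive monocytes, whereas the Tmem119 row is dark in all monocyte and B cell columns.

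In blood monocytes most members were far below their brain level. Metastasis blood gave 482 Hom and 322 Het monocytes, and naive blood gave 182 Hom and 175 Het. The median member stood at 1.45% of its brain level in metastasis and 1.68% in naive monocytes, against 75.9% and 92.1% for all genes. In metastasis monocytes 25 members were under 5% and 14 under 1%, and in naive monocytes 24 and 12. Tmem119 had a level of 0.023 in metastasis and 0.033 in naive monocytes, and P2ry12 0.135 and 0.122. Where a gene had 0 counts, the level it allows was set at 3 counts over the summed total, which is not the upper end of a Poisson interval. Both are corrected counts, so such a limit does not bound the raw counts of the gene. Lrrc3 had 0 counts in 804 metastasis monocytes, which allows a level of up to 0.00766, and 0 in 357 naive ones, which allows up to 0.0166.

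Lymphocytes, which are not known to make Tmem119 or P2ry12, serve as the comparison for background. In B cells Tmem119 was at 0.0372 in metastasis and 0.0552 in naive blood, and P2ry12 at 0.149 and 0.137, no lower than in monocytes. The median member was at 1.15% of its brain level in metastasis B cells and 1.19% in naive B cells, with median raw totals of 4258.5 and 4810 UMIs per cell, against 13757 and 11709 in the monocytes. All 8 samples were captured in 1 library, so RNA freed from any of them can reach all cells. Tmem119 and P2ry12 levels in blood monocytes were thus not above this comparison, which sets deeper cells against shallower ones. The part of depth in it and the source of the counts were not tested.

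A few members stood above their B cell level in monocytes. Tyrobp was at 39.1 in metastasis Hom and 38.2 in metastasis Het monocytes, and at 36.7 in naive Hom and 38.5 in naive Het monocytes, 246% of its brain level in metastasis and 239% in naive blood. P2ry6 was at 0.515 in metastasis Hom and 0.581 in metastasis Het, and at 0.775 in naive Hom and 0.706 in naive Het monocytes, 42.0 and 57.5% of its brain level. For both genes the Hom and Het counting intervals overlapped in each blood. In B cells Tyrobp was at 1.74 in metastasis and 1.42 in naive blood, and P2ry6 at 0.0149 and 0.00837. Trem2 was at 1.28 in metastasis and 0.774 in naive monocytes, against 0.114 and 0.151 in B cells. Tgfbr1 was at 0.490 and 0.835, against 0.243 and 0.246 in B cells. Selplg was at 2.94 and 3.72, against 0.679 and 0.698 in B cells, but other lymphocytes had more of it, with 3.97 in metastasis T cells, 7.44 in metastasis NK cells and 4.22 in naive T and NK cells.

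The authors' surface gates separated some of the 33 members between monocyte subsets. Ly6C-low monocytes patrol vessels, and Ly6C-high monocytes enter inflamed tissue. Metastasis blood had 67 Ly6C-low and 439 Ly6C-high monocytes, and naive blood had 64 and 173. Tgfbr1 was at 1.04 in Ly6C-low and 0.337 in Ly6C-high cells in metastasis blood, and at 1.48 and 0.317 in naive blood, ratios of 3.09 and 4.68. Mef2c was 2.40-fold and 1.94-fold higher in Ly6C-low cells. Cd81 was at 1.16 in Ly6C-low and 0.0234 in Ly6C-high cells in metastasis blood, resting on 5 counts in Ly6C-high cells, and at 0.537 and 0.0907 in naive blood. Trem2 ran the other way, at 0.552 in Ly6C-low and 1.46 in Ly6C-high cells in metastasis blood, and 0.379 and 1.01 in naive blood. The counting intervals of these 4 genes were apart in both tables. Those of Tyrobp were too, with Ly6C-low over Ly6C-high ratios of 0.776 in metastasis and 0.906 in naive blood. P2ry6 and Selplg overlapped between the gates in both. B cells of metastasis blood had more Cd81 (2.11) and Mef2c (8.55) than either subset. In metastasis blood the Hom sample gave 54 of the 67 Ly6C-low cells and all 38 of their Cd81 counts, with 0 in the 13 Het cells, so the values there rest mostly on 1 sample. The subsets differed in depth too, with median raw totals of 12218 UMIs in Ly6C-low and 14474 in Ly6C-high cells in metastasis blood and 6867.5 and 11979 in naive blood.

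Hom and Het monocytes, 1 sample each per table, were set side by side without a test. In metastasis monocytes 7 of the 19 members with 20 or more counts differed by at least 1.5-fold, against a background of 14.3%, and in naive monocytes 6 of 15, against 16.9%. The median log2 ratio of Hom over Het was -0.07 in each, against -0.06 and -0.08 for all genes. Most of these members had few counts, and the intervals were apart for 1 member in each table. Mef2c was at 0.915 (0.797 to 1.05) in Hom and 1.40 (1.22 to 1.60) in Het monocytes of metastasis blood. Ly6C-low cells, which had more Mef2c, made up 54 of 441 gated Hom cells (12.2%) and 13 of the 65 gated Het cells. The gates held 441 of 482 Hom but only 65 of 322 Het monocytes, so the gated Het values leave out most Het cells. Within the gates Mef2c was at 1.55 in Hom and 2.91 in Het for Ly6C-low cells, and at 0.728 and 0.949 for Ly6C-high cells, with intervals that overlapped. P2ry12, Cd81 and Bin1, which were past 1.5-fold in both bloods, pointed in opposite directions in them. The log2 ratio of Hom over Het was 0.75 in metastasis and -0.84 in naive monocytes for P2ry12, 0.87 and -1.04 for Cd81, and -0.73 and 0.65 for Bin1, from 8 to 55 counts a sample. Adap2 was past 1.5-fold in both as well and was lower in Hom in each, with log2 ratios of -0.80 and -0.77 from 9 to 22 counts a sample. Siglech was at 0.731 in Hom and 0.0784 in Het monocytes of naive blood. Of its 74 counts in both, 60 came from 3 cells, which carried 6 to 7 of the 7 other plasmacytoid dendritic cell markers measured.

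Single members were detected at higher levels in other cell types. Neutrophils had Tyrobp at 84.3 in metastasis and 73.9 in naive blood, Selplg at 16.9 and 15.4, Entpd1 at 2.80 and 2.16 and P2ry13 at 0.772 and 0.761. Their Tmem119 was 0.0626 and 0.0726, against 0.0372 and 0.0552 in B cells. Platelets, in which P2ry12 is the receptor that antiplatelet drugs block, had it at 3.03 in 50 metastasis cells and 3.19 in 51 naive ones, 24.9 and 26.2% of the brain level. P2ry13, its neighbour on chromosome 3, had 6 and 0 counts in those cells. Bin1 in platelets was at 7.76 and 9.29. B cells held Mef2c, which is needed for their development, at 8.55 in metastasis and 8.31 in naive blood, 74.6 and 72.5% of the brain level.

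In the brain, endothelial-like cells (301 cells) had Sparc at 13.8, Cd81 at 12.1, Mef2c at 6.48, Ecscr, an endothelial surface protein, at 2.21, and Tmem86a at 0.874. Their Tmem119 was 0.333 and their P2ry12 0.384, above the B cell level in blood. Smooth muscle-like cells (47 cells) had Serpine2 at 3.85 and Sparc at 8.22, and Tmem119 and P2ry12 had 0 counts, which allows a level of up to 0.0771 each. Choroid plexus-like cells (29 cells) had Cd81 at 7.51 and 0 counts of Tmem119, which allows up to 0.12. The median member reached 6.69% of the level in clusters 1 and 0 in endothelial-like cells, 5.58% in the cluster led by red cell and T or NK cell genes (248 cells), and 13.7% in the 36 brain neutrophils.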

How the data were processed

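The authors deposited 3 expression tables of natural log values, ln(1 + corrected count), which per the file contents are whole numbers once the log is undone (to within 2.18279e-11) and sum to each cell's corrected total. Each table carries the authors' clusters, hashtags, surface gates and raw totals. Cell Ranger 3.1 and mm10 are named in the submitters' processing notes. The correction pulls cells towards 1 depth within each table. On barcodes shared by 2 tables, the members' levels in brain over blood differed by log2 -0.36 to 0.16.

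Corrected counts were summed per sample and cluster over cells with 1 table and a hashtag share of 0.5 or more. Levels are per 10000. The values are not raw counts, so limma 3.58.1 (R 4.3.3) with a mean-variance trend was used on log2 of the scaled sum plus 1, for genes with at least 20 counts, with Benjamini-Hochberg adjustment over all genes tested and a threshold of 0.05. All 33 members passed that filter in each fit. The script was tested on simulated data. Blood groups of 1 sample were not tested, and their exact Poisson intervals are of 95%. Tables and figures used Python 3.11.15.

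The members and lists were chosen with earlier results of these data known. Every member was accounted for by role. Values in every sample were given for members past the limma threshold, for those with a 1.5-fold ratio between clusters in 4 of 4 samples, for the leading members of each role, or for those at 50% or more of the level in clusters 1 and 0 elsewhere, with ranges for the rest, and brain clusters of other cell types were summed over samples. Clusters were named from marker lists. Doublets were treated only through shared barcodes and hashtag shares. Alternatives were the choice of cells, scaling, pseudocount, filter, weighting of cells, depth, and leaving out each sample.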

Additional observations from a re-analysis of the deposited data

Results flagged for a closer look

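Cells of blood cluster 5 were not used in the comparisons, because most of their barcodes recur in the brain table or carry brain hashtags. In metastasis blood 163 of 208 such deposited cells recur in the brain table, as do 215 of 262 in naive blood. The members made up 2.35% of the counts of the 194 unused cells in the metastasis table and 2.23% of those of the 248 unused cells in the naive table, against 0.166% and 0.165% in B cells of the same tables. These shares are near that of brain cluster 1. Where the cells came from was not tested.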

How the results depend on the processing

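The number of members called in cluster 1, 2 as reported, ran between 0 and 4 when 1 sample was left out (4 without the first and 3 without the second CCR2-/- sample, 0 without the first and 3 without the second CCR2+/- sample). In cluster 0 the 1 call became 0 with all deposited cells, with a hashtag share of at least 0.8 and with the mean of the deposited ln values, and 0 to 1 with a sample left out. In the joined clusters the 1 call became 0 with all deposited cells, with upper quartile scaling, with a filter of 1 count and with the mean ln values, and 0 to 2 with a sample left out. The test of the difference between clusters gave 0 to 2 members with a sample left out. There Lrrc3 ran between -0.12 and 1.95 and Fscn1 between -1.27 and 0.21 on the log2 scale, so both changed sign, and the cause was not tested. Gpr84 in cluster 1 kept its direction under all 11 alternatives (log2 0.45 to 1.06, limma adjusted p up to 0.211), as did Tmem86a (-0.66 to -0.32, up to 0.185), and Tmx4 in cluster 0 lost its call under 5 of 11. The hashtags' replicate numbers name samples and pair none. No paired analysis was possible because no label ties a CCR2-/- sample to a CCR2+/- sample.

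The cluster 1 over cluster 0 median, 1.93, was 1.79 in a shared range of raw totals, in which the clusters' medians still differed, a range set after the depths were seen, since the planned one could not be used: the 5th percentile of cluster 1, 5893.4 raw UMIs, lay above the 95th percentile of cluster 0, 2865.75. The hashtag share was taken over the hashtags of a cell's own table together, where the plan named the cell's own hashtag alone. The cluster 3 median, 17.7%, was 24.6% in cells with 3 or more border markers and 11.4% in the others, a division also added after seeing the data. The blood monocyte median was 2.18% in metastasis and 2.79% in naive blood with all deposited cells, and 1.19% and 1.43% per cell. In the surface gates, added later, it was 1.60% in Ly6C-low and 1.16% in Ly6C-high metastasis cells and 1.29% and 1.40% in naive cells. The B cell median was 1.41% and 1.27% with all deposited cells, and 0.786% and 0.793% per cell. Members past 1.5-fold between Hom and Het monocytes numbered 11 in metastasis and 1 in naive blood with all deposited cells, against 7 and 6. Few samples, free RNA that 1 library can share and the shallow cells of cluster 0 limit all of these values.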
